A study of Mus musculus with 2 samples.

Results

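The barcodes described here are epithelial cells of mouse skin that carry RNA of Lhx2, Sox9 or Postn, genes known from the lower part of the hair follicle. They were selected on measured values. An epithelial barcode held at least 200 genes, at most 20% mitochondrial counts, at most 3 counts of Dcn, 0 of Ptprc, and at least 20 counts per 10000 (CP10K) of Krt5, Krt14, Krt1, Krt10, Krt17 and Krt79 together. Of these, members held at least 3 CP10K of Postn, Lhx2 and Sox9 together and under 5 CP10K of Krt79. A count is a unique molecular identifier (UMI), 1 captured RNA molecule. This gave 170 members, which is 13.9% (12.0 to 16.0) of the 1223 epithelial barcodes, among 8367 barcodes in all. The other 1053 epithelial barcodes served as the comparison.

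The skin came from C57BL/6 mice aged 8 weeks, kept either as controls or depleted of neutrophils with a monoclonal anti-Ly6G antibody, clone 1A8, on 2 days in a row, with no injury or other challenge named. The tissue was digested with Liberase and a DNase, cells of the 2 conditions were tagged with hashtag antibodies, and they were pooled into 1 droplet library. The count matrix has 0 rows for hashtags and names no condition per barcode, so control and depleted skin were not compared, and every value describes the pool. The number of mice is not given in the sources used here. With 1 library and no replicate there is no test of any difference. Intervals in parentheses are exact 95% intervals (Poisson for a level, conditional for a ratio, Clopper-Pearson for a share) and cover counting error only, not the spread between cells, animals or libraries.

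The hair follicle is renewed in cycles from a reservoir of stem cells in the bulge, the lowest permanent part of its outer root sheath. The transcription factors Lhx2 and Sox9 are known to maintain these cells, and Postn encodes periostin, a secreted protein of the extracellular matrix. Below and inside the bulge lie the hair germ, which starts a new hair, and an inner layer of Krt6a-positive cells that holds the resting hair shaft. Bulge cells are known for slow division and for a setting rich in BMP signals and Wnt inhibitors. Above the bulge, the isthmus and infundibulum lead to the interfollicular epidermis, where basal keratinocytes produce Krt5 and Krt14 and suprabasal cells Krt1 and Krt10.

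The promoters of 2 of the genes that define the members are shown because they differ in their core elements. The windows span the 250 bases before the RefSeq transcription start on build GRCm38.p6, and the gene after each is transcribed from the plus strand. The Lhx2 window lies at chr2:38339031-38339280 and the Postn window at chr3:54360857-54361106. Capitals mark GGGCGG, the GC box, and TATAAA, the TATA box, both searched on either strand.
Lhx2: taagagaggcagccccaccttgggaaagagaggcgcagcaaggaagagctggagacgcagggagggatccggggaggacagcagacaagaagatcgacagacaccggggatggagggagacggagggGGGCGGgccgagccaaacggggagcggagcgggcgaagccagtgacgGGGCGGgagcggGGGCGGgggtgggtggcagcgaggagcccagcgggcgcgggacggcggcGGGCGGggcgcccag
Postn: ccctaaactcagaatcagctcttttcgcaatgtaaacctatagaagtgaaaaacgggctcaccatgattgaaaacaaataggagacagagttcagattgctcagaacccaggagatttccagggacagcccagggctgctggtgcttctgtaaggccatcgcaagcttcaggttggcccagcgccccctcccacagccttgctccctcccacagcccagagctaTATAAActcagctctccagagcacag
The Lhx2 window held 4 GC boxes, starting 123, 76, 64 and 15 bases before the start, and no TATA box. The Postn window held 1 TATA box, 26 bases before the start, and no GC box. Over all 32851 RefSeq promoter windows of this length, 32.7% held GGGCGG and 12.4% held TATAAA. Searched likewise, with no match in these 2 windows, were TAATTA, a homeodomain core held by 4.84% of all windows, AACAAT, a SOX factor core, by 9.42%, TGTGGT, a RUNX core, by 14.0%, CTTTGA, a TCF and LEF core, by 13.8%, and TTGGCA, of nuclear factor I, by 12.3%. A match is a description of the letters and not a bound site.

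The summed level of the 3 selecting genes ran from 3.17 to 83.0 CP10K over the members, with a median of 16.2. Just inside the limit lay barcodes at 3.17, 3.18 and 3.21 CP10K, and just outside lay barcodes at 2.9985, 2.99 and 2.94. Between 3 and 4 CP10K there were 10 members, and between 2 and 3 there were 20 barcodes left out, while 959 of the 1037 other barcodes under the Krt79 limit held none of the 3 genes. For Krt79 the highest member had 3.73 CP10K and the lowest barcode excluded by it 5.50. These values chose the members and are given as a description.

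Sox9 was found in 135 of the 170 members, Postn in 127 and Lhx2 in 109. All 3 genes were present in 73 members, exactly 2 in 55 and exactly 1 in 42. Only 4 members rested on 1 UMI of the 3 genes, and 119 held 6 or more. Per barcode, Postn ranged from 0 to 63.0 CP10K with a median of 5.88, Sox9 from 0 to 36.3 CP10K with a median of 3.99 and Lhx2 from 0 to 18.6 CP10K with a median of 2.76. Pooled over members, Postn (chromosome 3, 54361109 to 54391037, plus strand, mm10) came to 1012 CPM (957 to 1069.8), where CPM stands for a gene's UMIs per 1000000 UMIs of the set. Sox9, on chromosome 11 at 112782224 to 112787760, came to 504 CPM (465 to 545), and Lhx2, on chromosome 2 at 38339281 to 38369733, to 337 CPM (305 to 371).

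**Figure D1:**
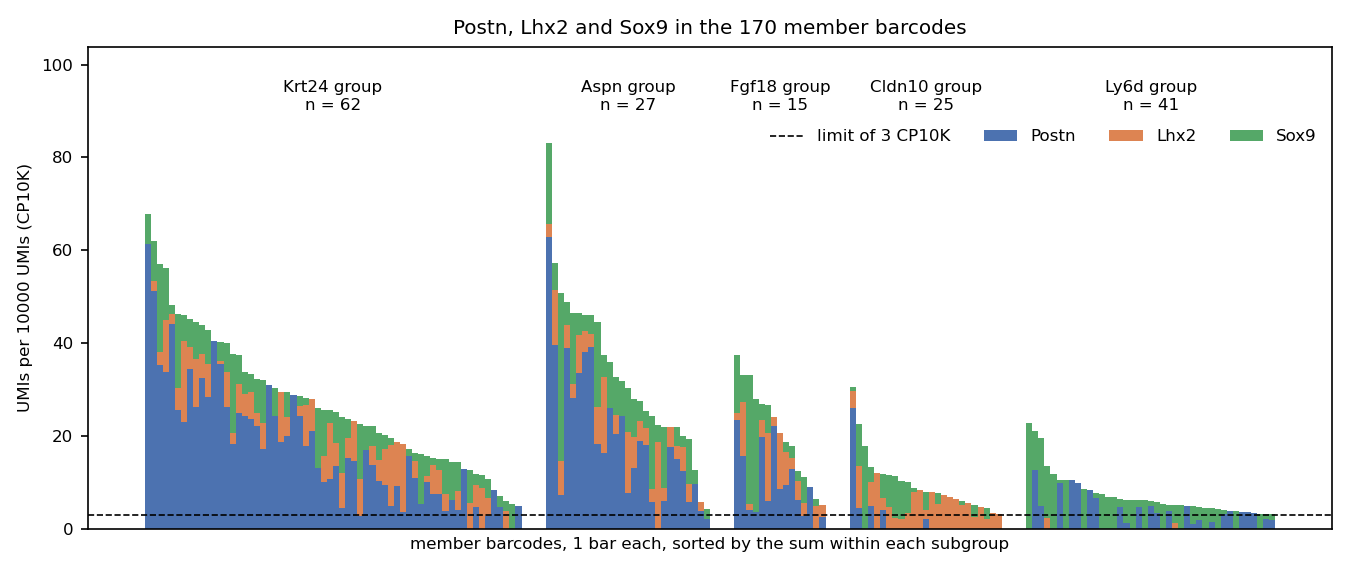
CP10K of Postn (blue), Lhx2 (orange) and Sox9 (green) stacked for each of the 170 members, arranged by the 5 subgroups described further on, with the limit of 3 CP10K as a dashed line. Postn makes up the largest part of the bars in the Krt24, Aspn and Fgf18 groups, Lhx2 and Sox9 in the Cldn10 group, and Sox9 and Postn in the Ly6d group, whose bars reach 22.8 CP10K at most.

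RNA released from other cells can give counts in a droplet, so the same genes were also read in fibroblast-type and immune barcodes. Fibroblasts express Postn and Cd34 themselves, so for these genes they are not a measure of released RNA. Fibroblast-type barcodes (at least 10 Dcn UMIs, median 11500.5 UMIs in all) numbered 3434, and Ptprc-positive barcodes, which are immune cells, 2151. Barcodes with at least 2000 UMIs were thinned to 2000, and those with fewer were left out. This left out 6 members, 35 fibroblast-type and 139 Ptprc-positive barcodes. Postn was then seen in 60.4% (52.4 to 67.9) of members, in 32.4% of fibroblast-type barcodes, which make periostin, and in 0.646% of Ptprc-positive barcodes. Lhx2 was seen in 43.9% (36.2 to 51.9) of members and in 0.199% of Ptprc-positive barcodes. Sox9 was seen in 57.9% and 0.0994%. Without thinning the shares in members were 74.7%, 64.1% and 79.4%, at a median of 6634 UMIs per member and 7694 per Ptprc-positive barcode. Cd34, a bulge marker outside the rule that dermal fibroblasts also express, was seen in 37.8% (30.4 to 45.7) of thinned members, 84.9% of fibroblast-type and 1.64% of Ptprc-positive barcodes. For Cd34, the gene of these 4 that did not select the members, the share in members was thus above that in immune barcodes.

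Members held 1232125 UMIs, from 962 to 24767 per barcode, and were shallower than the other epithelial barcodes, whose median was 11181. Their median mitochondrial share was 2.86% against 2.15%. The doublet caller marked 0 of the members and 4 of the other epithelial barcodes. Dcn was at 0 in 139 members, 1 in 28 and 2 in 3. The summed level of the fibroblast marker list was 266 CPM in members, 106 in the others and 23953 in fibroblast-type barcodes. Sparc, a matrix protein gene that follicle cells can also express, gave most of this difference at 174 against 31.5 CPM, while Col1a2 was at 30.8 against 11.9 CPM, Col3a1 at 21.9 against 18.8 CPM and Col1a1 at 5.68 against 8.33 CPM. Sparc and Col1a2 were the 2 of 9 measured genes in this list that were at least 2-fold higher. Released RNA, estimated from this list with Sparc included, came to 2.07% of the UMIs of members and 0.827% of those of the others. Whether the Sparc counts were released RNA was not tested, so the gap between these shares cannot be read as a difference in released RNA.

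Lists of markers for other cell types were low. The immune list summed to 73.9 CPM in members and 27497 in Ptprc-positive barcodes, the endothelial list to 3.25 and the Merkel cell list to 1.62, with 4 of 6 and 4 of 5 genes at 0. The pericyte or smooth muscle list had 4 of 5 genes at 0 in members. Skeletal muscle genes were lower than in the other epithelial barcodes (45.4 against 209.8 CPM), as were Schwann cell genes (32.5 against 66.2). In the melanocyte list Mitf stood at 375 against 27.2 CPM, 13.8-fold (11.9 to 16.0) higher, but Pmel and Dct had 1 UMI each in all members. Mitf, best known as the master regulator of pigment cells, was counted in 113 members.

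The markers given with the label were all used by the rule, so they do not test it. Krt17, a keratin of the follicle that the rule uses only as part of the keratin sum, was at 1436 CPM (1369.6 to 1504) in members and 137 CPM in the others. It ranged from 0 to 164 CP10K with a median of 4.89 over members. The bulge marker Cd34, which the rule does not use, lies on chromosome 1 at 194938819 to 194961279 on the plus strand. Cd34 was at 304 CPM (274 to 336) in members and 3.62 CPM in the others, a ratio of 83.9-fold (61.1 to 118). It was present in 88 of the 170 members, from 0 to 20.6 CP10K with a median of 1.32. Cd34 was found in 57 of 62, 16 of 27, 11 of 15 and 3 of 25 barcodes of the 4 subgroups called below the Krt24, Aspn, Fgf18 and Cldn10 groups. For the other 41 members the data went against the label. This subgroup, called the Ly6d group after a gene that leads it, had Lhx2 at 10.2 CPM and Cd34 at 5.09 CPM. Its Krt14 and MHC genes were near the levels of interfollicular basal barcodes, but its keratin list summed to 14151 CPM against 20410 there. Results are therefore also given for the 129 members left once it is removed, an alternative added when its values were known.

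Of 10228 genes measured (at least 50 UMIs in epithelial barcodes, genes of the rule and mitochondrial genes left out), 1188 or 11.6% were at least 2-fold higher in members than in the other epithelial barcodes, and 829 or 8.11% were at least 2-fold lower. The median log2 ratio of all genes was 0.11, so a ratio near 1 is the typical gene. For the members outside the Ly6d group the shares were 13.6% higher and 12.2% lower of 10167 genes. Against the 737 other barcodes of basal type, in which Krt5 and Krt14 UMIs are at least as many as those of Krt1 and Krt10, they were 9.81% and 7.5% of 9663 genes. Counts in the lists below are read beside these shares.

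The bulge stem cell list stood highest in members, apart from the inner bulge list. Leaving out the 3 selecting genes, 10 of 13 measured genes were at least 2-fold higher and 0 at least 2-fold lower, with a median log2 ratio of 4.10. Tbx1, a T-box factor of follicle stem cells, was at 119 against 1.09 CPM, 109-fold (61.8 to 209.7) higher. Lgr5, a receptor for R-spondins and a marker of cycling bulge and germ cells, was at 239 against 7.32 CPM, 32.6-fold (25.6 to 41.9) higher, and ranged from 0 to 55.2 CP10K with a median of 0, being present in 72 of the 170 members. Nfatc1, which holds bulge cells in quiescence, was at 218 against 21.6 CPM and Tcf7l1, a Wnt pathway repressor of the bulge, at 87.7 against 6.82 CPM. Cd200, a surface protein that restrains immune cells, was at 117 against 4.04 CPM, Fst, the activin-binding follistatin, at 489 against 23.7 CPM, and Npnt, the nephronectin of the bulge basement membrane, at 79.5 against 15.1 CPM.

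Krt15, often used as a bulge keratin, did not separate the members. It lay at 5616 CPM (5485 to 5750.2) against 6943 CPM in the others, and at 7497 CPM in basal-type and 5976 in suprabasal-type barcodes. Over members it ranged from 0 to 245 CP10K with a median of 44.4. Ccnd2, listed for the bulge, was at 153 against 236 CPM. Runx1 and Foxc1, transcription factors of bulge activation and quiescence named after their values were seen, stood at 265 against 15.5 CPM and 69.8 against 3.03 CPM.

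Against the other reference sets the bulge list was likewise high. Over basal-type barcodes 10 of 13 genes were at least 2-fold higher with a median log2 of 3.84, over the 300 suprabasal-type barcodes 12 of 13 with 6.53, and over the 16 barcodes with at least 5 CP10K of Krt79 9 of 12 with 2.85. Krt79 is a gene of the upper follicle and of sebaceous ducts, and these 16 were rich in sebaceous genes, whose list summed to 13059.5 CPM against 7038 for the upper follicle list. Of the 16, 5 also held at least 3 CP10K of the selecting genes. Over all 16, the Sox9 level was 236 CPM and the Krt17 level 1484 CPM, but Cd34, Lhx2, Postn and Lgr5 had 0 UMIs there. With the Ly6d group removed, the bulge list gave 10 of 13 higher, 1 lower, median 4.35 against the other epithelial barcodes, and Cd34 was 123-fold (89.2 to 172) higher.

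In the inner bulge and companion layer list, 8 of 8 measured genes were at least 2-fold higher and 0 at least 2-fold lower, with a median log2 ratio of 5.48. Krt6a, the keratin of the inner bulge, had 147 UMIs in members and 4 in the others, 354-fold (136 to 1318) higher, and was carried by 45 members. Fgf18, a growth factor that keeps follicles at rest, was at 40.6 against 0.337 CPM, Fgf1 at 44.6 against 0.589 CPM, and Bmp6, a BMP ligand of the same layer, at 82.8 against 1.85 CPM. S100a4, a calcium-binding protein, was at 798 against 17.6 CPM. Krt16 counts came from 3 members, all in the Ly6d group, and without that group the list gave 6 of 8 higher, 1 lower, median 6.03. Krt75, the companion layer keratin, had 2 UMIs in members and 1 in the others, too few for a comparison.

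Hair germ and lower outer root sheath genes were mixed, with 4 of 9 measured genes at least 2-fold higher and 3 at least 2-fold lower, with a median log2 ratio of 0.38. Pthlh, which encodes parathyroid hormone-related protein, was at 68.2 against 0.421 CPM and Ptn, the growth factor pleiotrophin, at 1316 against 67.2 CPM. Cdh3, the P-cadherin of the germ, was at 150.1 against 115 CPM, 1.30-fold (1.11 to 1.52) higher. The 3 lower genes, named after their values were seen, were Il1r2 at 12.2 against 98.7 CPM, Clu at 9.74 against 46.3 CPM and Elovl6 at 14.6 against 60.3 CPM. Shh, the signal of growing follicles, had too few UMIs to be measured. In the hair matrix and inner root sheath list only 5 of 16 genes were measured. There Hoxc13, a homeobox factor of hair keratin genes, was at 54.4 against 0.589 CPM, and Mt4, a metallothionein of differentiating keratinocytes, at 3.25 against 544 CPM.

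In the upper follicle list, 4 of 9 measured genes were at least 2-fold higher and 1 at least 2-fold lower, with a median log2 ratio of 0.86. Gata6, a factor of the upper follicle and sebaceous duct, was at 28.4 against 3.53 CPM and Lrig1, a stem cell marker of the isthmus and an inhibitor of EGF receptor signalling, at 149 against 56.3 CPM. Without the Ly6d group the list gave 0 of 7 higher, 2 lower, median -0.34, and Gata6 was at 4.77 and Lrig1 at 84.6 CPM. The sebaceous list held 0 higher and 6 lower of 10, with Far2, Cidea and Elovl3 of lipid synthesis and storage at 0 UMIs in members. That comparison includes the 16 Krt79 barcodes, whose sebaceous list summed to 13059.5 CPM. Over basal-type barcodes the list gave 1 of 4 higher, 1 lower, median 0.10. The dermal papilla is a signalling centre beneath the follicle. Its list had 4 measured genes, 1 at least 2-fold higher and 2 at least 2-fold lower, with a median log2 ratio of -1.12. The higher gene was Sostdc1, a BMP and Wnt inhibitor also made by follicle epithelium, at 394 against 67.3 CPM. Without the Ly6d group the 4 genes summed to 139.461 against 139.514 CPM. The log2 ratio of Sostdc1 ran from 1.006 to 3.15 over the alternative settings.

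**Figure D2:**
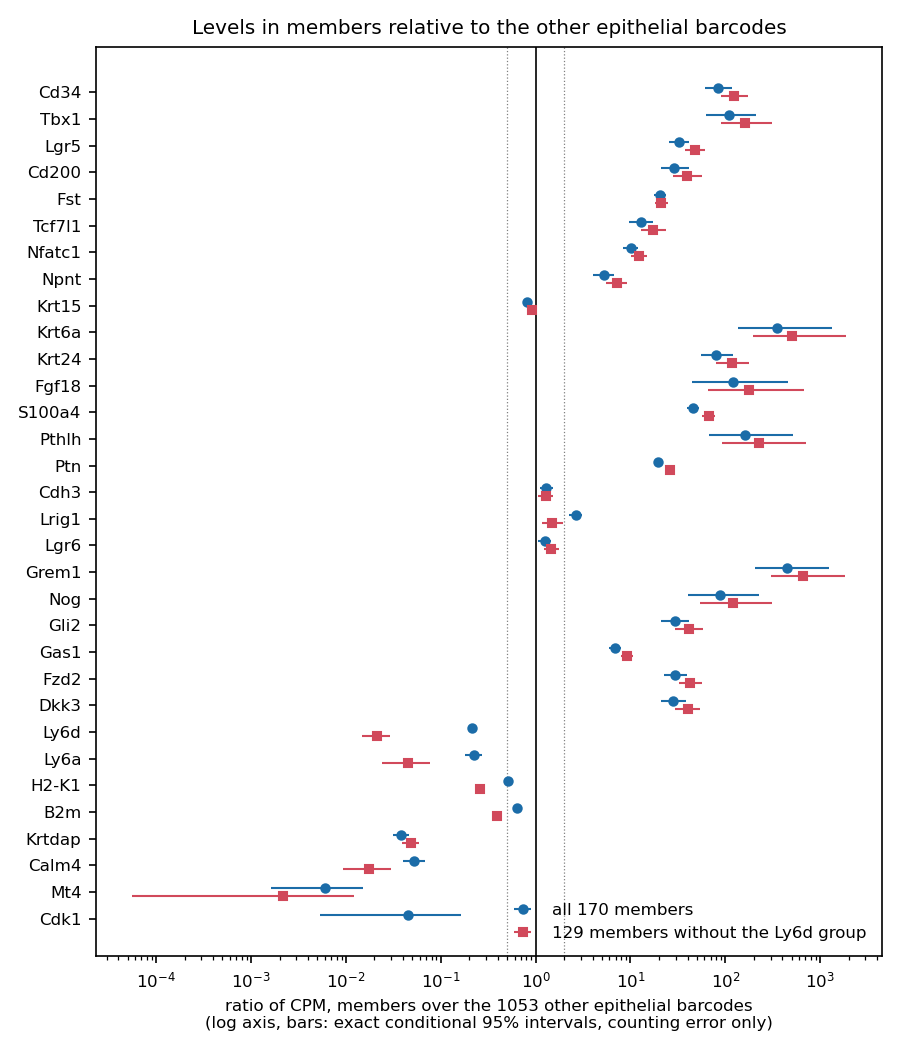
Ratio of CPM in members over the 1053 other epithelial barcodes for 32 named genes on a log axis, for all 170 members (circles) and for the 129 without the Ly6d group (squares), with exact conditional 95% intervals that cover counting error only. Follicle genes such as Cd34 lie far above 1, Krt15 lies near 1, and Ly6d, Ly6a, H2-K1 and B2m lie lower once the Ly6d group is left out, when Cdk1 has 0 UMIs and is not drawn.

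The follicle transcription factor list had 15 higher and 5 lower genes of 31, with a median log2 ratio of 0.92. By level it was led by Nfib, a nuclear factor of bulge cells, at 1979.5 against 516 CPM, and Foxp1, a forkhead factor of quiescent bulge cells, at 1298 against 271 CPM. Both were carried by nearly all members, 169 and 162 of 170. Klf4, a factor of the differentiating epidermis, was at 1137 against 514 CPM. On the low side, named after their values were seen, Sox6 was at 15.4 against 470.3 CPM, Gata3 at 170.4 against 466 CPM and Ovol1 at 19.5 against 89.9 CPM.

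The interfollicular keratins Krt1, Krt10, Krt5 and Krt14 all entered the rule's keratin sum. Krt1 and Krt10 were low in members, while Krt5 and Krt14 were less than 2-fold lower than in the other epithelial barcodes. Krt1 and Krt10, keratins of the spinous layer used in the rule's keratin sum, were at 15.4 against 1092 CPM and 101 against 2872 CPM, and the basal keratins Krt5 and Krt14 at 2963 against 3996 CPM and 2772 against 4711 CPM. Krt24, a type I keratin, was 80.4-fold (54.9 to 122) higher at 203 against 2.52 CPM. Of 8 measured keratins outside the rule, 3 were higher and 3 lower. In the suprabasal list, 1 of 11 measured genes were at least 2-fold higher and 5 at least 2-fold lower, with a median log2 ratio of -0.93, and in the cornified envelope list 0 were higher and 8 lower of 13. Without the Ly6d group 8 of 11 suprabasal and 10 of 13 cornified envelope genes were lower. Krtdap, a keratinocyte differentiation protein, was 26.1-fold (21.6 to 32.0) lower and Calm4, a calcium-binding skin protein, 19.1-fold (14.7 to 25.2) lower. Sbsn, the suprabasin of differentiating cells, was at 549 against 533 CPM. Over basal-type barcodes the cornified envelope list gave 2 of 7 higher, 3 lower, median 0.29. These genes were uneven over the subgroups described further on. The cornified envelope list summed to 8422 CPM in the Fgf18 group, against 5685 in the other epithelial barcodes. The other subgroups lay between 138 CPM in the Cldn10 group and 3591 in the Aspn group. Krtdap had 85 UMIs in the Aspn group and 19 in the other members.

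In the basal interfollicular list, 0 of 11 measured genes were at least 2-fold higher and 3 at least 2-fold lower, with a median log2 ratio of 0.28. The surface proteins Ly6d and Ly6a were at 432 against 2023 CPM and 77.9 against 347 CPM, and the metallothionein Mt2 at 300.3 against 938 CPM. Cdh13, a cadherin without a cytoplasmic tail, was at 881 against 502 CPM and Col17a1, a hemidesmosome collagen that anchors basal cells, at 1197 against 851 CPM. Once the Ly6d group was left out the basal list gave 0 of 11 higher, 5 lower, median -0.10, and Ly6d was 47.2-fold (34.0 to 67.3) and Ly6a 22.4-fold (13.1 to 42.1) lower than in the other epithelial barcodes.

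**Figure D3:**
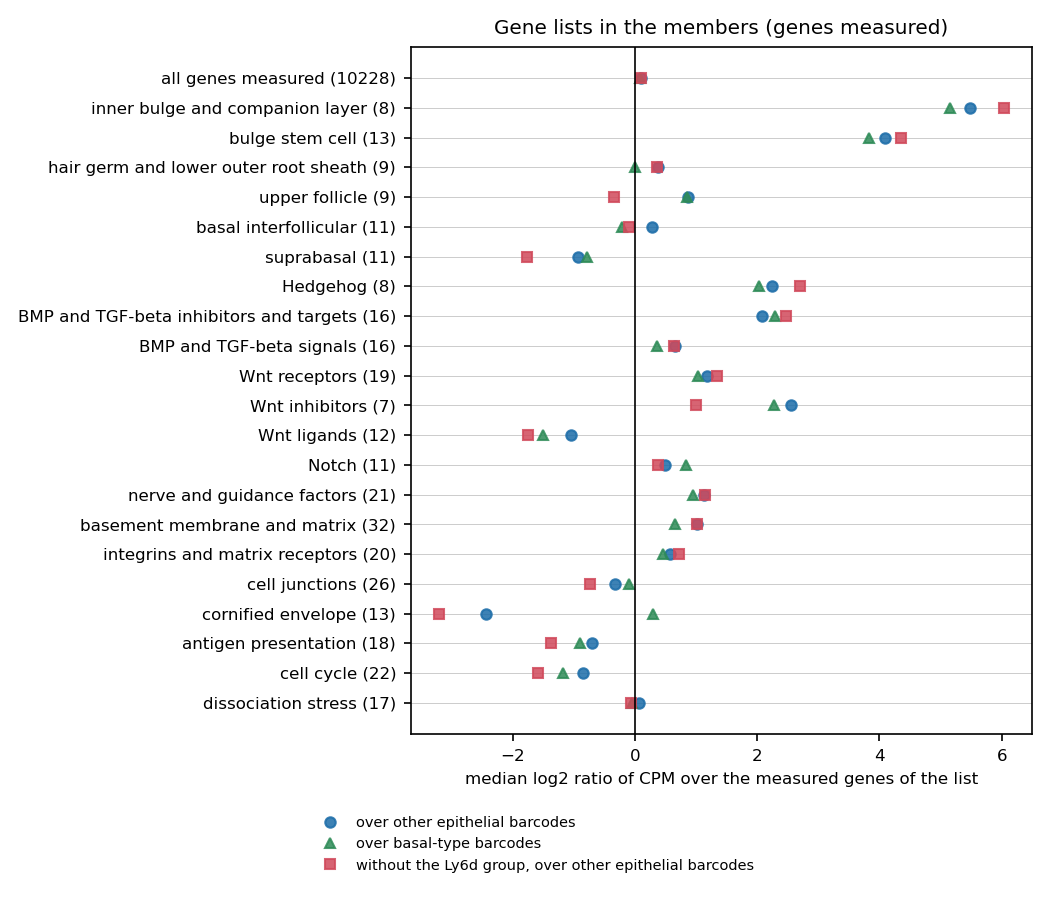
Median log2 ratio of CPM for 21 gene lists and all genes measured, members over the other epithelial barcodes (circles), over basal-type barcodes (triangles) and without the Ly6d group (squares), with the number of genes measured in the first of these beside each name. The inner bulge and bulge lists lie furthest right in all 3 comparisons, and the cornified envelope median of -2.44 (circle) rests on genes at 0 UMIs in members, and with those at 3 counts it is -0.95.

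Signalling genes were described by role. Among Wnt ligands and their secretion factors, 1 of 12 measured genes were at least 2-fold higher and 6 at least 2-fold lower, with a median log2 ratio of -1.04. Wnt4, a ligand of the epidermis, was at 97.4 against 155 CPM, Wnt10a at 26.0 against 69.0 CPM, Wnt3a at 0.812 against 11.7 CPM, and Rspo3, an R-spondin that strengthens Wnt signals, at 5.68 against 52.5 CPM. The receptors ran the other way, with 11 of 19 measured genes at least 2-fold higher and 2 at least 2-fold lower, with a median log2 ratio of 1.18. The frizzled receptor Fzd2 was at 184 against 6.23 CPM, the R-spondin receptor Lgr4 at 229.7 against 50.2 CPM and Ror2, a receptor for Wnt5a, at 34.9 against 1.26 CPM.

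Secreted Wnt inhibitors were 4 higher and 0 lower of 7 measured. The list's median log2 ratio was 2.55 and, without the Ly6d group, 1.01. The higher genes included Wif1 (46.3 against 0.757 CPM), Dkk3 (147 against 5.22 CPM), Sfrp1 (141 against 23.3 CPM) and Sostdc1. Among nuclear factors and targets 5 of 13 were higher and 0 lower. Lef1, the activating factor of growing germ and matrix, was at 39.8 against 2.95 CPM and Tcf7l2 at 253 against 84.1 CPM. Axin2, a direct target of the pathway named after its value was seen, was at 19.5 against 27.9 CPM, 0.697-fold (0.440 to 1.06) of the other epithelial barcodes.

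BMP and TGF-beta ligands and receptors had 5 higher and 3 lower of 16. Bmp6 was 44.7-fold (28.0 to 74.5) higher, Bmp4 had 1 UMI in members against 509 in the others, and the receptor Bmpr1b had 0, at least 5.98-fold lower with 0 read as 3 counts over the members. Bmpr1a, the receptor through which BMPs act on the follicle, was at 185 against 117 CPM. The inhibitors and targets of the pathway stood higher as a list, with 14 of 16 measured genes at least 2-fold higher and 0 at least 2-fold lower, with a median log2 ratio of 2.07. Grem1, a secreted BMP antagonist, was at 228 against 0.505 CPM, 452-fold (205 to 1241) higher, and Nog, the antagonist noggin, at 51.9 against 0.589 CPM. The BMP target genes Id3 and Id1 were at 881 against 229 CPM and 556 against 171 CPM, and Ltbp2, a TGF-beta binding protein family member, at 54.4 against 0.673 CPM. Over basal-type barcodes the list gave 14 of 16 higher, 0 lower, median 2.29.

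In the Hedgehog list, 6 of 8 measured genes were at least 2-fold higher and 0 at least 2-fold lower, with a median log2 ratio of 2.25. The coreceptors Gas1 and Boc were at 280.0 against 40.7 CPM and 181 against 22.3 CPM, and the transcription factors Gli2 and Gli3 at 123 against 4.21 CPM and 177 against 23.4 CPM. Gli1, a target gene that reads pathway activity, had 24 UMIs in 16 members and 2 in the others. Hhip, an inhibitor that binds the ligand, had 28 UMIs against 0, at least 90.0-fold higher with 0 read as 3 counts over the other barcodes. In the Notch list 2 of 11 were higher and 1 lower. Maml2, a coactivator, was at 254 against 92.6 CPM, Hes1, a target, at 120.1 against 216 CPM and the receptor Notch3 at 5.68 against 29.7 CPM. In the FGF and EGF list 3 were higher and 1 lower of 15, with the receptor Fgfr1 at 247 against 14.0 CPM, Fgfr2 at 382 against 352 CPM and Egfr at 398 against 215 CPM.

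Matrix genes were often higher. In the basement membrane and matrix list, 16 of 32 measured genes were at least 2-fold higher and 1 at least 2-fold lower, with a median log2 ratio of 1.02. Ccn2, the matricellular protein also called connective tissue growth factor, was at 214 against 2.44 CPM, 87.8-fold (59.7 to 134) higher, and Crim1 at 496 against 173 CPM. Fras1, which links epithelium to the underlying matrix, was at 65.7 against 1.01 CPM but was carried by 17 members. Col4a3, a collagen of specialised basement membranes, had 36 UMIs in members and 1 in the others. Among integrins and matrix receptors 4 of 20 were higher and 0 lower. In the 129 members 8 were higher and 1 lower. Itgb8, an integrin chain that activates TGF-beta, was at 60.1 against 3.70 CPM, while Itga6, the hemidesmosome integrin, was at 331 against 621 CPM.

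Cell junction genes had 2 higher and 5 lower of 26. In the 129 members there were 1 higher and 10 lower. The desmosomal proteins Perp and Dsp were at 1097 against 1909 CPM and 805 against 860.0 CPM, and Dsg1a, a desmoglein of differentiating layers, was 6.17-fold (4.97 to 7.76) lower.

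Nerve and guidance factors were among the higher lists, with 12 of 21 measured genes at least 2-fold higher and 2 at least 2-fold lower, with a median log2 ratio of 1.13. Sema3e, a secreted semaphorin, was at 476 against 15.8 CPM, Plxna2, a semaphorin receptor, at 328 against 47.4 CPM, and Robo2, a receptor for Slit proteins, at 312 against 20.3 CPM. Bdnf, the neurotrophin known from the follicle's sensory endings, had 52 UMIs in 18 members against 2 in all others. Nrtn, a ligand of the GDNF family, and Gfra1, a receptor of that family, were at 181 against 17.4 CPM and 81.2 against 0.673 CPM, and Il31ra, a chain of the interleukin 31 receptor, at 484 against 23.6 CPM. Nrtn and Il31ra were named after their values were seen.

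Immune signals of the epithelium had 6 higher and 3 lower of 19. Cxcl14, a chemokine made by epithelium, was at 1759 against 820.3 CPM and Cxcl12 at 116 against 12.3 CPM. Ccl27a, the chemokine that draws T cells to skin, was at 1115 against 1228 CPM, and the alarm cytokine Il33 at 18.7 against 109.9 CPM. In the 129 members 7 were higher and 6 lower.

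Genes of antigen presentation lay below the other epithelial barcodes, and how far depended on the Ly6d group and on the reference set. In all members, 0 of 18 measured genes were at least 2-fold higher and 3 at least 2-fold lower, with a median log2 ratio of -0.70. The MHC class I heavy chains H2-K1 and H2-D1 were at 650.1 against 1264 CPM and 493 against 981 CPM, and their light chain B2m at 781 against 1219.9 CPM, ratios of 0.514-fold (0.478 to 0.552), 0.503-fold (0.463 to 0.546) and 0.640-fold (0.599 to 0.683). Without the Ly6d group 14 of 18 were at least 2-fold lower, with a median log2 ratio of -1.37. H2-K1 was then 3.83-fold (3.40 to 4.33), H2-D1 3.20-fold (2.83 to 3.64) and B2m 2.55-fold (2.31 to 2.82) lower. Over basal-type barcodes the full set of members gave 0 of 18 higher, 7 lower, median -0.89. Over suprabasal-type barcodes it gave 0 of 18 higher, 3 lower, median -0.24. Over the 16 Krt79 barcodes it was not lower, with 1 of 11 higher, 0 lower, median 0.08. Cd74 and the MHC class II genes H2-Ab1 and H2-Eb1 had 22, 15 and 15 UMIs in members. Cd74 thus stood at 17.9 CPM in members, below the 47.6 CPM of fibroblast-type barcodes and far below the 11147 CPM of Ptprc-positive barcodes. Whether these counts in members were released RNA was not tested.

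Cell cycle genes were lower in members than in the other epithelial barcodes, with 0 of 22 measured genes at least 2-fold higher and 8 at least 2-fold lower, with a median log2 ratio of -0.85. Ube2c and Cdk1, genes of dividing cells, were at 3.25 against 83.7 CPM and 1.62 against 36.4 CPM, and the UMIs of each came from 2 members. Cdk1 was 22.4-fold (6.16 to 186) lower. Over basal-type barcodes the list gave 0 of 21 higher, 12 lower, median -1.18, but over suprabasal-type barcodes 2 of 10 higher, 2 lower, median 0.16, and over the 16 Krt79 barcodes 3 of 7 higher, 0 lower, median 0.35. Cdkn1a, a cell cycle inhibitor, was at 196 against 361 CPM. In the 129 members 13 of 22 were lower and Cdk1 had 0 UMIs. Genes induced by tissue digestion were similar in members and others as a list, 1 of 17 higher, 0 lower, median 0.06, with Fos at 2927 against 2134 CPM, Jun at 2253 against 2129.8 CPM and Ier3 at 862 against 256 CPM. This list was also similar over basal-type barcodes, median -0.05. Over suprabasal-type barcodes it gave 3 of 17 higher, 0 lower, median 0.36. Over the 16 Krt79 barcodes it was higher, with 15 of 17 higher, 0 lower, median 2.14. Against the other epithelial barcodes, the lipid and retinoid list had 5 higher and 9 lower of 21. Fabp5, the epidermal fatty acid-binding protein, was at 5.68 against 236 CPM and Elovl4, an enzyme of very long fatty acids, at 0.812 against 85.4 CPM. Hmgcs1 of cholesterol synthesis was at 86.8 against 335 CPM and Cyp26b1, which breaks down retinoic acid, at 32.5 against 1.09 CPM. The lipid and retinoid result depended on the reference set. Over basal-type barcodes this list gave 4 of 18 higher, 5 lower, median -0.006. Over suprabasal-type barcodes it gave 1 of 16 higher, 9 lower, and over the 16 Krt79 barcodes 0 of 11 higher, 11 lower.

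Outside the lists, the genes with the largest ratios were led by Wfdc3 and Chat, which had 169 and 100 UMIs in members and 0 in the other epithelial barcodes. With 0 read as 3 counts over those barcodes, Wfdc3, a protease inhibitor family gene, was at least 543-fold and Chat, which makes acetylcholine, at least 322-fold higher. Chat was present in 51 of the 170 members and Wfdc3 in 63. Shisa2, an inhibitor of Wnt and FGF receptor maturation, was at 159 against 0.252 CPM, 630.2-fold (212 to 3082) higher, and Sorcs3, a sorting receptor of neurons, at 104 against 0.252 CPM. Pdzrn3 and Pdzrn4, related ubiquitin ligase genes, were at 532 against 2.19 CPM and 277 against 1.18 CPM, 243-fold (164 to 375) and 235-fold (138 to 434) higher. Tgm5, a transglutaminase, was at 242 against 2.10 CPM, Klhl29 at 205 against 1.68 CPM, Rnf152 at 92.5 against 0.757 CPM, and the neuropeptide gene Cck at 89.3 against 0.926 CPM. The remaining genes of this rank were Serpinb11, Chsy3, Gfra1, Grik1 and Plpp1, between 90.7-fold and 235-fold higher.

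At the low end outside the lists stood Gna14, a G protein subunit, at 1.62 against 104 CPM, 64.3-fold (17.8 to 531) lower, and Gm94 at 5.68 against 255 CPM. Ndufa4l2, a mitochondrial protein gene known to respond to low oxygen, was at 19.5 against 528 CPM, Cdh4, the R-cadherin, at 6.49 against 163 CPM and Sema3d at 4.87 against 124 CPM. Calm5, Wnk2, Oas1f, Fam25c and Clca2 were between 9.80-fold and 33.7-fold lower. S100a6, a calcium-binding protein named after its value was seen, was the more abundant kin of S100a4, at 4709 against 736 CPM, and was found in 157 of the 170 members.

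Clustering of the members on their 2000 most variable genes gave 5 subgroups, called here by genes that lead them. A gene that leads a cluster helped to make it, so all values by subgroup are descriptions, and genes not in the named lists were chosen after their values were seen. The Krt24 group held 62 members or 36.5% (29.2 to 44.2), the Ly6d group 41, the Aspn group 27, the Cldn10 group 25 and the Fgf18 group 15. Their median depths were 5744.5, 9715, 5347, 8818 and 4966 UMIs, so the Ly6d and Cldn10 groups were the deeper ones.

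The Krt24 group had the highest Cd34 level, 756 CPM, and Cd34 was found in 57 of 62 of its barcodes, from 0 to 19.0 CP10K with a median of 6.93. It held all 250 Krt24 UMIs of the members, at 692 CPM, with S100a4 at 2342, Krt15 at 9511 and Cxcl14 at 4174 CPM. Lgr5 was at 473, Sfrp1 at 399, Il31ra at 1110.0 and Angptl7, an angiopoietin-like gene with 0 UMIs in the other epithelial barcodes, at 163 CPM.

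The Fgf18 group shared Cd34 (598 CPM), Lgr5 (339.6) and Krt6a (299) with the Krt24 group, where Krt6a was at 329 CPM. It had 36 of the 50 Fgf18 UMIs, at 489 CPM, together with Bmp6 at 353, Sbsn at 3858 and Ramp1, a subunit of the CGRP receptor, at 557 CPM. Krt15 was at 15145 CPM and Krt14 at 13.6, with Krt14 in 1 of 15 barcodes and Krt5 at 3749 CPM. Foxp1 was at 3206 CPM, above the other 4 subgroups.

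The Aspn group combined the highest Krt17 and Postn levels, 6514 and 2275 CPM, and its Krt17 ranged from 0 to 164 CP10K with a median of 52.7. Lhx2 was at 489 and Cd34 at 330.5 CPM, while Lgr5 had 1 UMI and Krt14 was at 197 CPM. It carried 329 of the members' 385 Robo2 UMIs, 297 of 586 of Sema3e, 117 of 223 of Nrtn and 44 of 52 of Bdnf. These 4 genes differed in this from Plxna2, of which it held 17 of 404 UMIs and the Krt24 group 302. The whole nerve and guidance list summed to 6934 CPM in the Aspn group and 2987 in the Krt24 group. Gli1 was at 89.0, Hhip at 139.8, Lgr6, a receptor of follicle and epidermal stem cells, at 566, Pthlh at 432 and Fst at 1805 CPM. Aspn, a small matrix proteoglycan, was at 833 CPM and Col4a3 at 216. Aspn is also a fibroblast gene (189 CPM in fibroblast-type barcodes), but Col1a1 had 1 UMI in the group.

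The Cldn10 group had Lhx2 at 507 and Lgr5 at 389 CPM with Cd34 at 12.2 CPM, and Cd34 was found in 3 of 25 of its barcodes. Cdh3 and Lef1, genes of the hair germ, were higher here than in the other 4 subgroups, at 292 and 182 CPM. It held 47 of the 67 Hoxc13 UMIs and 80 of the 81 of Fras1, and Sox5 was at 697, Gli2 at 247 and Abi3bp at 2589.9 CPM. Krt17 was found in 25 of 25 barcodes, Postn in 5 of 25. Its keratin list summed to 5857 CPM, the lowest of the 5 subgroups, against 13546 over all members. Abi3bp and Sox5 are also fibroblast genes, at 407 and 437 CPM in fibroblast-type barcodes, and the group's fibroblast list summed to 203 CPM.

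In the Ly6d group several genes lay near interfollicular basal barcodes. Ly6d was at 1262 CPM against 1499 in basal type, Krt14 at 5522 against 6746, Serpinb2 at 852 against 1082 and Slc24a3 at 427 against 639. It was selected by Sox9, present in 33 of the 41, and Postn, present in 24. Outside the rule it differed from basal type by Fst at 463 against 34.2 CPM, Sostdc1 at 949 against 70.6, Ptn at 384 against 97.6, Lrig1 at 285 against 63.4 and Gata6 at 78.8 against 3.19. The upper follicle marker Plet1 was at 333 CPM against 102. Some transcripts came from a few barcodes. All Krt16 UMIs came from 3 members, and the 101 Cx3cr1 UMIs came from 5.

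**Figure D4:**
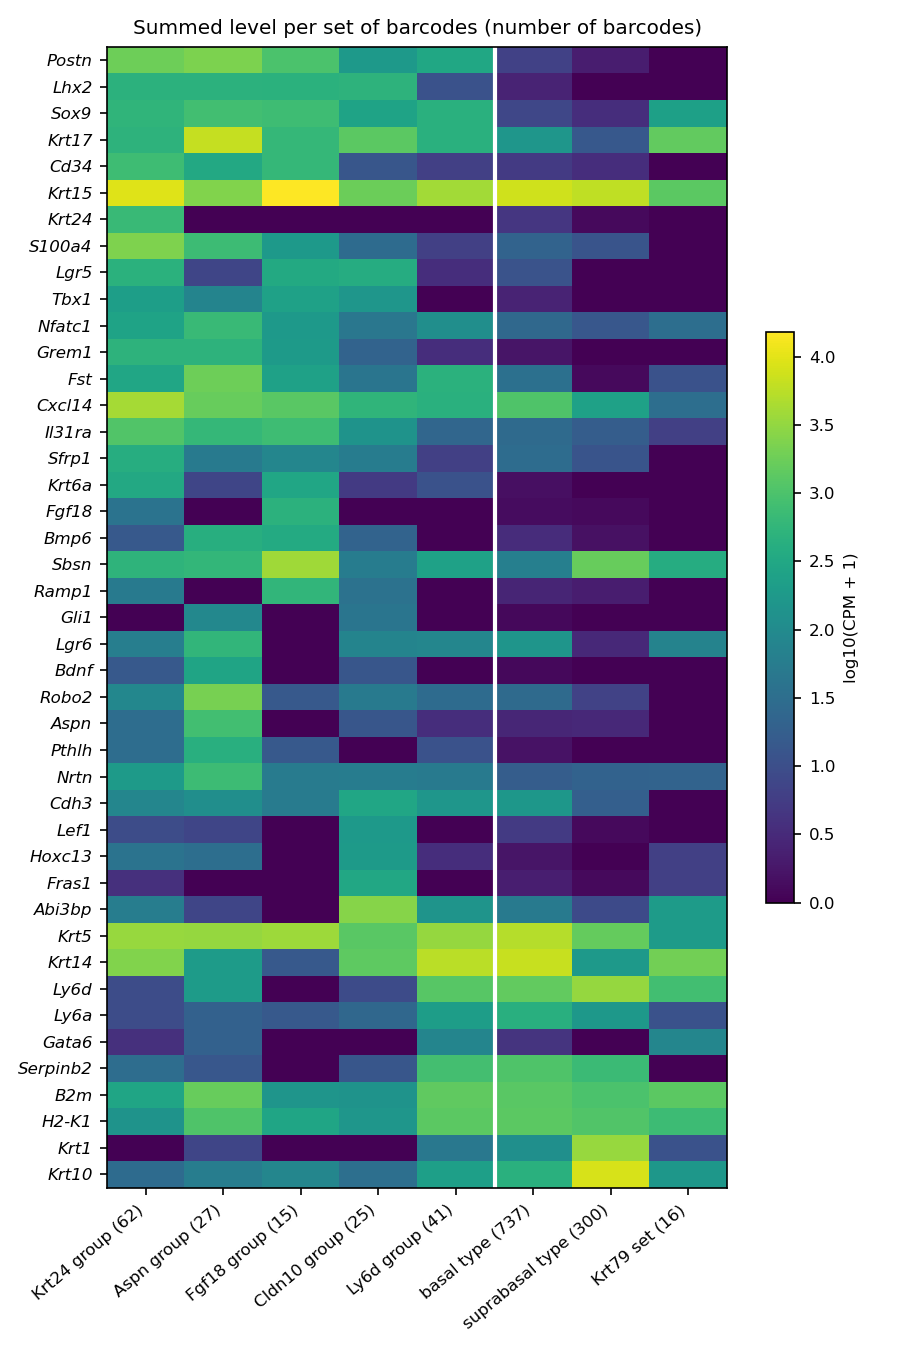
Summed level of 43 genes as log10(CPM + 1) in the 5 subgroups of members and, right of the white line, in basal-type, suprabasal-type and Krt79 barcodes, with the number of barcodes in parentheses. Cd34 is high in the Krt24, Aspn and Fgf18 columns, Lgr5 in the Krt24, Fgf18 and Cldn10 columns, and the Ly6d column resembles the basal-type column apart from Postn, Sox9 and a few genes such as Fst and Gata6.

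MHC class I transcripts divided the subgroups. H2-K1 was at 138 CPM in the Krt24 group, 154 in the Cldn10 group and 285 in the Fgf18 group, but at 1068 in the Aspn group and 1333 in the Ly6d group, against 1349 in basal-type barcodes. Per barcode the median was 0 CP10K in the Krt24 group and 10.8 in the Aspn group, groups of similar depth, and H2-K1 was found in 27 of 62 and 26 of 27 barcodes. B2m divided the subgroups in the same way, with 291, 142 and 149 CPM in the first 3 groups and 1595 and 1424 in the other two. The whole antigen presentation list summed to 1024, 648 and 1073 CPM against 4805 and 4829.8. The immune marker list was low throughout, between 40.5 and 209.7 CPM, highest in the Aspn group, where Tyrobp was at 57.2 CPM. Its part in the MHC values was not tested.

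**Figure D5:**
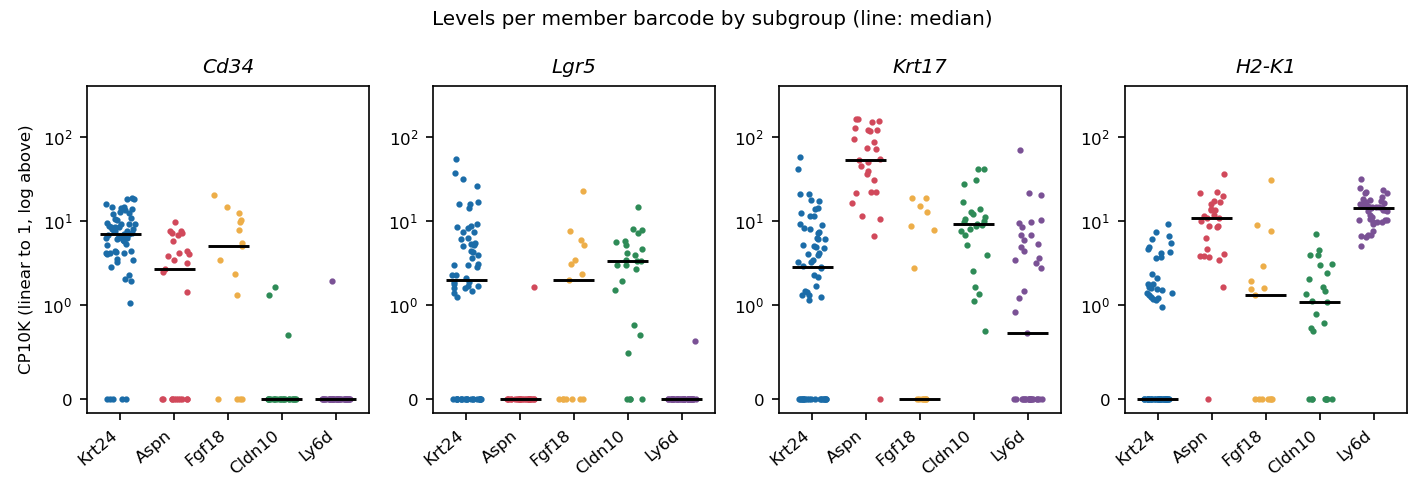
Level of Cd34, Lgr5, Krt17 and H2-K1 in each member barcode by subgroup, in CP10K on an axis that is linear to 1 and logarithmic above, with the median as a line. Cd34 is 0 in most Cldn10 and Ly6d barcodes, Lgr5 in all but 1 barcode each of the Aspn and Ly6d groups, and H2-K1 medians are 10.8 and 14.3 CP10K in the Aspn and Ly6d groups and at most 1.32 in the other 3.

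Members thus differed among themselves in genes that are often read as markers of the same cell. Lhx2 was close to level across the Krt24, Aspn, Cldn10 and Fgf18 groups, between 462 and 507 CPM. Lhx2 helped to choose the members, so its even level is a description and not a yardstick for the other genes. Over the same 4 groups Cd34 ran from 12.2 to 756 CPM, Lgr5 from 6.36 to 473 and Krt14 from 13.6 to 2408. Nfatc1 was highest in the Aspn group at 667 CPM and lowest in the Cldn10 group at 44.6, and Id3 lay between 940.3 and 1398 CPM in all 4. Chat was at 163, 178 and 177 CPM in the Krt24, Aspn and Fgf18 groups and had 0 UMIs in the other two. Wfdc3 divided them alike, at 327, 242 and 163 CPM against 4.05 in the Cldn10 group and 0 in the Ly6d group. Mitf lay between 464 and 789 CPM in the first 3 groups and at 81.1 and 86.5 in the other two. Tbx1, in contrast, was present in the Cldn10 group too, at 154 CPM, between the Aspn group at 76.3 and the Fgf18 group at 244. Without replicates these differences cannot be told apart from differences between the animals or conditions that were pooled.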

How the data were processed

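The deposited matrix holds UMI counts per gene and cell barcode of 1 pooled library, made by the authors with Cell Ranger on mm10, per the submitters' processing notes. Its version and the calling of cells are not given in the sources used here. The matrix held 32285 genes and 8367 barcodes (83725065 UMIs, median 9426, lowest 500), of which 8127 had at least 200 genes and at most 20% mitochondrial counts. The second deposited library, of hashtags, was not used here.

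Counts were summed over each set of barcodes and divided by the set's total (CPM). A gene was measured with at least 50 UMIs in epithelial barcodes and called higher or lower at 2-fold. This is a threshold of size, since 1 library allows no test. Scrublet (scanpy 1.11.5, expected rate 6%) called 305 doublets, which were kept. Subgroups came from Leiden clustering (leidenalg 0.10.2, resolution 0.5, 20 components, 15 neighbours). Intervals used scipy 1.17.1. Gene positions are from GENCODE on mm10. Of these steps only the ratios and their intervals were tested on simulated counts.

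The members and lists were chosen with earlier results of these data known. Named were the genes of the rule and markers, 14 set genes, the 3 most abundant and 3 most different of each of 39 lists (at least 20 UMIs), and outside them the 15 highest (at least 100 UMIs) and 10 lowest (at least 1000). Alternatives varied each limit of the rule, depth, doublets, released RNA, weighting and the gene minimum. The result of 1 list is not reported here.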

Additional observations from a re-analysis of the deposited data

How the results depend on the processing

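The number of members, 170, was 139 with Dcn at 0, 136 with at least 6 CP10K of the 3 selecting genes, 128 with at least 2 of them present, 137 with Postn not used, 107 with keratins at 50 CP10K, and 129 without the Ly6d group, the last chosen after seeing the data. With at least 200 UMIs per gene, 518 genes were higher and 492 lower in place of 1188 and 829, because fewer genes are tested. The other settings gave 1045 to 1759 higher and 770 to 1239 lower. The median log2 ratio of the hair matrix and inner root sheath list, 1.03, changed sign to -0.67 with Dcn at 0, -0.03874 with the higher limit on the selecting genes and -4.20 with the higher keratin limit. So did that of Tchh in it, to -0.03874 with the higher limit on the selecting genes, and of Krt16, to -3.52 with at least 2 selecting genes, -2.39 after thinning and -6.21 without the Ly6d group. The causes were not tested. These are the ratios of at least 2-fold that changed sign, 4 of 2977 recomputed gene ratios and 3 of 540 list medians. Smaller ratios that crossed 0 were not counted. Of 540 list counts 495 stayed within 1.5 times. With released RNA subtracted, 1188 genes were higher and 907 lower. That setting rests on the estimate with Sparc included, 2.07% for members and 0.827% for the others. A larger share taken from members can itself lower their ratios, so the change from 829 lower genes cannot be read as an effect of released RNA. Depth limits genes with few UMIs, and 6 members held under 2000 UMIs. No paired analysis was possible because the series has 1 library of RNA counts and no replicate groups.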
